A study of Mus musculus with 8 samples.

Results

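Fibroblast growth factor (FGF) signalling was followed through its ligands, receptors, co-receptors, feedback inhibitors and transcriptional targets in the parietal bone of the mouse skull roof. The 41 genes were taken by symbol from a count table of 27133 genes. They comprise 15 secreted ligands that act locally, 2 ligands that circulate as hormones, 4 FGF-like proteins that stay inside the cell, 5 receptor genes, 4 co-receptor and carrier genes, 8 feedback inhibitors, 2 ETS transcription factors and 1 adaptor. The phosphate hormone of osteocytes is not among them, nor is Fgfr1op2, whose product is not a receptor. Of the 41, 29 had enough counts to be tested and 12 did not.

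All pups were C57BL/6J mice. The isotype group (4 libraries, numbered 2 to 5 in their titles) received a control antibody, and the anti-CSF1R group (4 libraries, 7 to 10) an antibody that blocks CSF1R, the receptor that monocytes, macrophages and osteoclasts need. Doses were transcranial, at postnatal days 2, 4 and 6, and the bone was collected at day 9 after perfusion. The labels name no sex, litter or batch. Each title carries its own number, but nothing spells out that each library is of a separate pup, and the p-values measure the spread among these libraries.

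FGF ligands bind receptor tyrosine kinases together with heparan sulphate, a sugar chain of the cell surface and matrix. The occupied receptor phosphorylates the docking protein FRS2, which feeds the RAS and ERK kinase cascade. Sprouty and Spred proteins and the ERK phosphatase DUSP6 hold that cascade back, and the cascade induces several of these brakes along with the ETS factors ETV4 and ETV5. In the skull vault the pathway sets the pace of osteoblast differentiation at the sutures, and activating mutations of FGFR2 or FGFR3 cause premature suture fusion.

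Total counts were 57496279 to 69118931 per library, and 82.8% to 84.7% of counts from 1 to 10 were even, as arises if each read pair adds 2 counts. Bone identity was plain: the 9 osteoblast markers were all detected, and Sp7, the osteoblast transcription factor, stood at 586 to 807 CPM (counts scaled to equal library totals after TMM normalisation). The summed level of 6 macrophage markers was 340 to 719 CPM under isotype and 50.4 to 92.8 CPM under anti-CSF1R, and that of 6 osteoclast markers 5382 to 13110 and 2014 to 2739 CPM. In bulk RNA, fewer cells of a type and less RNA per cell cannot be told apart. Isotype 3 and 4 were unlike the other 6 libraries (Spearman correlation across genes 0.916 to 0.943 with them, against 0.986 to 0.997 among those 6). Both held more of the GC-rich transcripts: the Spearman correlation of GC content with each gene's distance from the median library was 0.650 and 0.640, and -0.371 to -0.029 in the others. The main comparisons are therefore also given with isotype 2 and 5 as the sole controls, and many with an offset per gene and library for GC content and transcript length.

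No FGF gene changed past the threshold when all 8 libraries were compared. The edgeR quasi-likelihood test, with Benjamini-Hochberg adjustment over 17028 genes, called 0 of the 29 tested FGF genes higher and 0 lower at an adjusted p under 0.05, against 0.0235% and 0.822% of all genes (0.846% in either direction, 144 genes). At an unadjusted p under 0.05 there were 6 of the 29, against 17.9% of all genes. DESeq2 called 2, both higher (Fgf7 and Fgf9), against 0.869% of genes called higher and 3.69% lower (4.56% in all). The limma-voom fit called 0, against 0.0294% higher and 0.652% lower (0.681% in all). Of the 29, 3 had no overlap between the groups, all higher with anti-CSF1R (Fgf9, Fgf7 and Fgfr2), against 6.61% of genes higher and 8.34% lower without overlap, so this count is close to the background. With isotype 2 and 5 as controls those 3 genes were called higher by edgeR and none lower, against 0.679% of genes called higher and 2.38% lower (3.06% in all). There 7 of the 29 lay higher and 1 lower without overlap, against 11.3% and 12.9% of genes. The 7 were Fgf7, Fgf9, Fgf21, Fgfr1, Fgfr2, Fgfbp3 and Spry4, and the lower gene was Spred1. With the GC and length offset 1 was called higher, Fgf9, and 0 lower, against 0.493% and 2.16% of genes (2.65% in all). After that offset 5 of the 29 lay higher and 0 lower without overlap, against 7.99% and 7.3%. The median log2 fold change of the 29 was 0.24, against 0.031 over all genes tested. It was 0.034 against 0.0028 with isotype 2 and 5 only, and 0.12 against 0.020 with the offset.

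**Figure D1:**
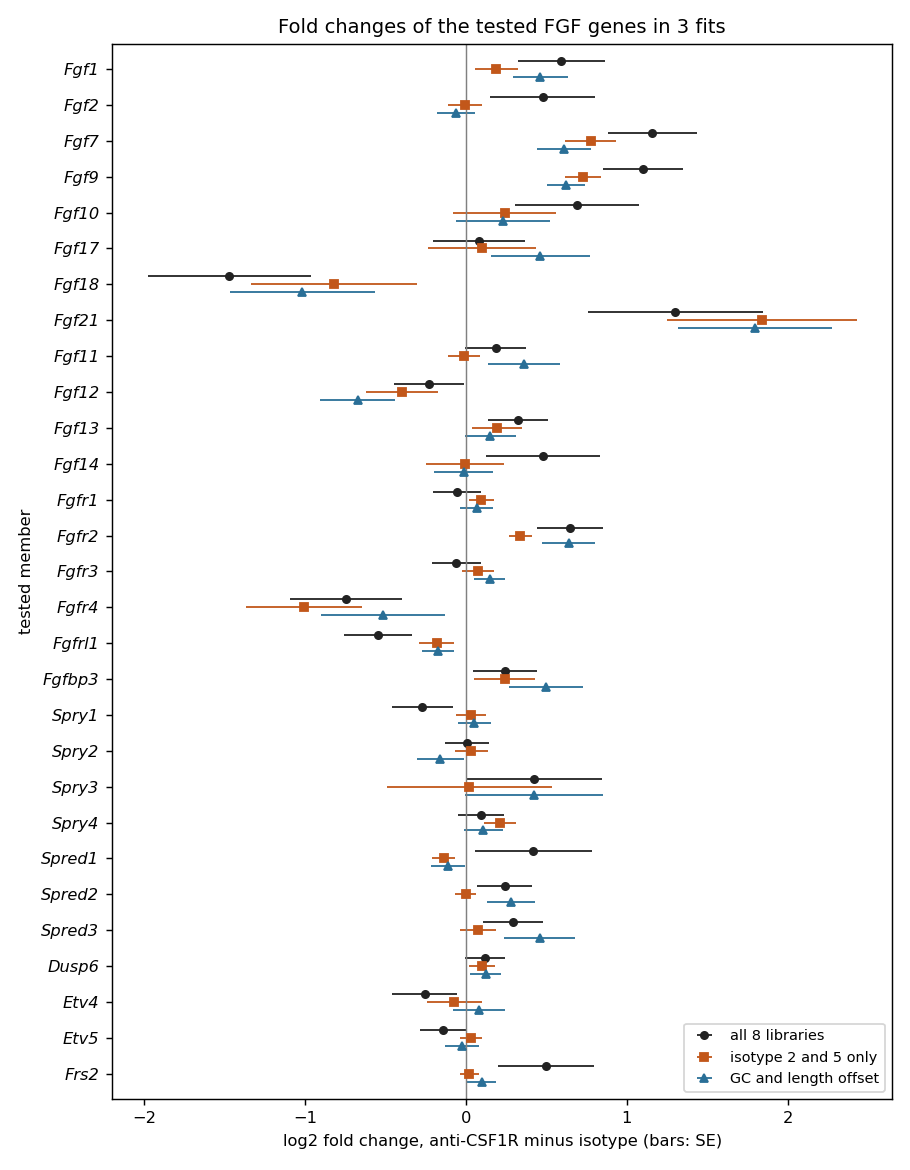
Log2 fold change (anti-CSF1R minus isotype) with its standard error for each of the 29 tested FGF genes, from the fit on all 8 libraries (circles), with isotype 2 and 5 as the only controls (squares) and with the GC and length offset (triangles). Fgf7, Fgf9 and Fgfr2 lie right of 0 in each fit, as do other members, among them Fgf21, Fgf1 and Dusp6. Fgf2, Fgf14 and Frs2 move to near 0 when isotype 3 and 4 are left out. Spry3 has no annotated GC content or length, so its triangle holds no such correction.

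Fgf9, a ligand that signals through the mesenchymal splice forms of the receptors and acts in skeletal development, had the smallest adjusted p of the secreted ligands. It stood at 11.97, 7.98, 7.10 and 15.6 CPM in isotype 2 to 5. In anti-CSF1R 7 to 10 it stood at 22.1, 21.7, 23.2 and 24.5 CPM. Every anti-CSF1R library lay above every isotype library, and isotype 3 and 4 were the lowest of all. The means were 10.7 ± 3.92 and 22.9 ± 1.26 CPM (SD, n = 4 each), 2.15-fold higher. The log2 fold change of 1.102 ± 0.25 (SE) missed the threshold on all libraries (edgeR adjusted p = 0.0894). It was 0.73 (edgeR adjusted p = 0.00727) with isotype 2 and 5 only. Under the offset it was 0.62 (edgeR adjusted p = 0.0230), also past the threshold. Fgf9 thus rose in both of those fits, to 1.66 times the mean of isotype 2 and 5. Without isotype 5, its highest control, Fgf9 was called as well (1.34, edgeR adjusted p = 0.0326). Leaving out that library widens the difference and gives more weight to isotype 3 and 4. With any other single library left out Fgf9 missed the threshold (edgeR adjusted p = 0.0867 to 0.278). After the offset the isotype values ran from 10.2 to 13.6 CPM and the anti-CSF1R values from 17.3 to 20.5 CPM, still without overlap. With a muscle score (mean log2 CPM of 8 muscle genes) as a covariate the log2 fold change was 0.93 (edgeR adjusted p = 0.530), a fit in which edgeR called 0 of all genes (1005 at an unadjusted p under 0.05).

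Fgf7, or keratinocyte growth factor, is a product of mesenchymal cells that acts on the epithelial splice form of FGFR2. It was the annotated member with the lowest GC content, 38.0% in its longest GENCODE transcript. Its levels were 4.02, 2.10, 1.57 and 2.88 CPM in isotype 2 to 5. They were 5.72, 6.01, 6.13 and 5.78 CPM in anti-CSF1R 7 to 10. The groups did not overlap, and the anti-CSF1R libraries were tightly grouped, at 5.91 ± 0.192 CPM against 2.64 ± 1.07 CPM (SD, n = 4 each). Its log2 fold change was 1.16 ± 0.27 (SE) on all libraries (edgeR adjusted p = 0.110). Fgf7 rose with isotype 2 and 5 as controls (0.78, edgeR adjusted p = 0.0296), and it missed the threshold with the offset (0.61, edgeR adjusted p = 0.102). Without isotype 2, its highest control, Fgf7 was called (1.41, edgeR adjusted p = 0.0299). Here too the omission widens the difference and gives more weight to isotype 3 and 4. With any other single library left out Fgf7 missed the threshold (edgeR adjusted p = 0.0911 to 0.295).

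The promoters of Fgf9 and Fgf7, the ligands whose levels were apart between the groups, are shown beside that of Dusp6, a feedback gene whose levels overlapped. Each is the 250 bases before the RefSeq start in GRCm38.p6, written 5′ to 3′, with capitals marking each CG dinucleotide. The build of the count table could not be settled, so these positions belong to the RefSeq table alone: Fgf9 at chr14:58072436-58072685 (plus strand), Fgf7 at chr2:126034408-126034657 (plus strand) and Dusp6 at chr10:99262981-99263230 (plus strand).
Fgf9: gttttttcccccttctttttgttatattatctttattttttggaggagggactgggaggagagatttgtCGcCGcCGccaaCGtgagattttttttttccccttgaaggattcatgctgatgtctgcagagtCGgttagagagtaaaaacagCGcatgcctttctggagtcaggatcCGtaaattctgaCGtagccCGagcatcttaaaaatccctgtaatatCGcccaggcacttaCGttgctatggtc
Fgf7: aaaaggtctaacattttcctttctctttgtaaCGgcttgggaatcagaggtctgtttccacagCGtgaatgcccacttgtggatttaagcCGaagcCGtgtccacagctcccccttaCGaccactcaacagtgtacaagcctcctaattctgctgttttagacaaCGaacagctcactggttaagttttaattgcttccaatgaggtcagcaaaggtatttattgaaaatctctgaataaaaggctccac
Dusp6: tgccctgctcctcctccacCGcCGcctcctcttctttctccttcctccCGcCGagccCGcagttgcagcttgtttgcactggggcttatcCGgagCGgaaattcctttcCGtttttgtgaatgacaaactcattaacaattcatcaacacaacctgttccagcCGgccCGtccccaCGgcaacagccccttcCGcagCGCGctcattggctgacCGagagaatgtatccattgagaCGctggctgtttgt
These windows hold 11, 6 and 16 CG dinucleotides, against a median of 14 (quartiles 6 and 22) over 16309 promoters of tested genes. Their GC content is 44.8%, 43.6% and 56.4%, against a median of 58.8%. Motifs searched on both strands were the ETS core CCGGAA, the RUNX core TGTGGT, the TATA box TATAAA and the GC box GGGCGG, none of which is the reverse complement of another, and 0 matches were found in the 3 windows. Of 23 tested members with an entry in the promoter table, 4 held the ETS core (18.9% of promoters of tested genes do), 2 the RUNX core (11.3%), 2 the TATA box (7.06%) and 16 the GC box (53.0%) in at least 1 of their promoters. The percentages are per promoter and the member counts per gene, so members with several promoters (Fgf12 and Fgf13 have 4 each) had more chances of a match. A match describes letters and not a bound site.

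Fgf1, a ligand that can activate all FGF receptors, was the most abundant ligand per kilobase of exon, at 11.5 CPM per kb with isotype and 17.3 with anti-CSF1R. Its levels were 74.1, 46.2, 39.2 and 91.7 CPM in isotype 2 to 5, against 91.4, 83.4, 90.7 and 114 CPM in anti-CSF1R 7 to 10. Isotype 5 lay within the anti-CSF1R range, so the groups overlapped. Its log2 fold change of 0.59 ± 0.27 (SE; edgeR adjusted p = 0.278) was 0.19 without isotype 3 and 4. Fgf2, the other member of its subfamily, stood at 14.1, 7.46, 5.02 and 14.8 CPM under isotype and at 12.3 to 16.0 CPM under anti-CSF1R. The low values were again isotype 3 and 4, and its log2 fold change of 0.48 turned to -0.0065 without isotype 3 and 4 and to -0.060 under the offset. In GENCODE, 640 bases of Fgf2 exon (9.44%) overlap Nudt6 on the opposite strand, and although the kit (TruSeq Stranded mRNA) keeps strand, whether counting used it is not known.

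Fgf18, a ligand known from calvarial osteogenesis and cartilage, was scarce and went the other way. Raw counts were 48, 50, 100 and 32 in isotype 2 to 5 and 28, 35, 28 and 6 in anti-CSF1R 7 to 10. In CPM these were 0.766, 0.955, 1.65 and 0.452 against 0.397, 0.462, 0.404 and 0.0990. Isotype 5 fell just below anti-CSF1R 8, so the groups overlapped by that library. This gave a log2 fold change of -1.47 ± 0.51 (SE; edgeR adjusted p = 0.263), and without isotype 3 and 4 it was -0.82 (edgeR adjusted p = 0.530). Under the offset it was -1.02 (edgeR adjusted p = 0.2075). Fgf18 was highest in isotype 4 and 3, and its transcript is rich in GC (56.2%).

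The remaining secreted ligands that could be tested were Fgf10 and Fgf17. Fgf10, a mesenchymal ligand of limb and lung buds, stood at 0.420 to 1.41 CPM under isotype and 1.02 to 2.12 CPM under anti-CSF1R. Fgf17, of the same subfamily as Fgf18, stood at 0.330 to 0.649 and 0.411 to 0.594 CPM. Neither group pair was apart (edgeR adjusted p = 0.2996 and 0.850). Of the hormone-like ligands, Fgf21, a metabolic hormone known from liver, stood at 0.0958, 0.458, 0.132 and 0.198 CPM in isotype 2 to 5. It stood at 0.397, 0.264, 0.836 and 0.660 CPM in anti-CSF1R 7 to 10. Isotype 3 lay inside the range of the treated libraries, and all raw counts were between 6 and 58. Its log2 fold change of 1.30 ± 0.54 (SE) missed the threshold (edgeR adjusted p = 0.278), and without isotype 3 and 4 it was 1.84 (edgeR adjusted p = 0.154). Under the offset it was 1.80 (edgeR adjusted p = 0.0935), also short of the threshold. The offset values no longer overlapped, at up to 0.279 CPM under isotype and from 0.294 CPM under anti-CSF1R.

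Transcripts of 8 secreted ligands were at or near a count of 0. Fgf4, Fgf5 and Fgf8 had a count of 0 in every library, which allows up to 0.0792 to 0.115 CPM in a library (3 read pairs, or 6 counts where a pair adds 2, counting error only). Fgf3, Fgf6, Fgf16, Fgf20 and Fgf22 reached at most 6, 4, 4, 2 and 8 counts in any library. Fgf15, the gut hormone, reached 2.

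The intracellular FGF-like proteins bind voltage-gated sodium channels and microtubules and are best known from neurons. All 4 were detected. Fgf11 stood at 7.81 to 13.9 CPM under isotype and 12.1 to 13.9 CPM under anti-CSF1R, Fgf13 at 5.76 to 9.58 and 8.50 to 9.64 CPM, Fgf14 at 1.502 to 4.35 and 2.77 to 4.52 CPM, and Fgf12 at 2.08 to 3.31 and 1.82 to 2.64 CPM. The groups overlapped in each, with edgeR adjusted p-values of 0.483, 0.302, 0.360 and 0.459. The summed level of 6 markers of neurons and glia was 13.8 to 15.7 CPM under isotype and 10.1 to 19.6 CPM under anti-CSF1R.

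**Figure D2:**
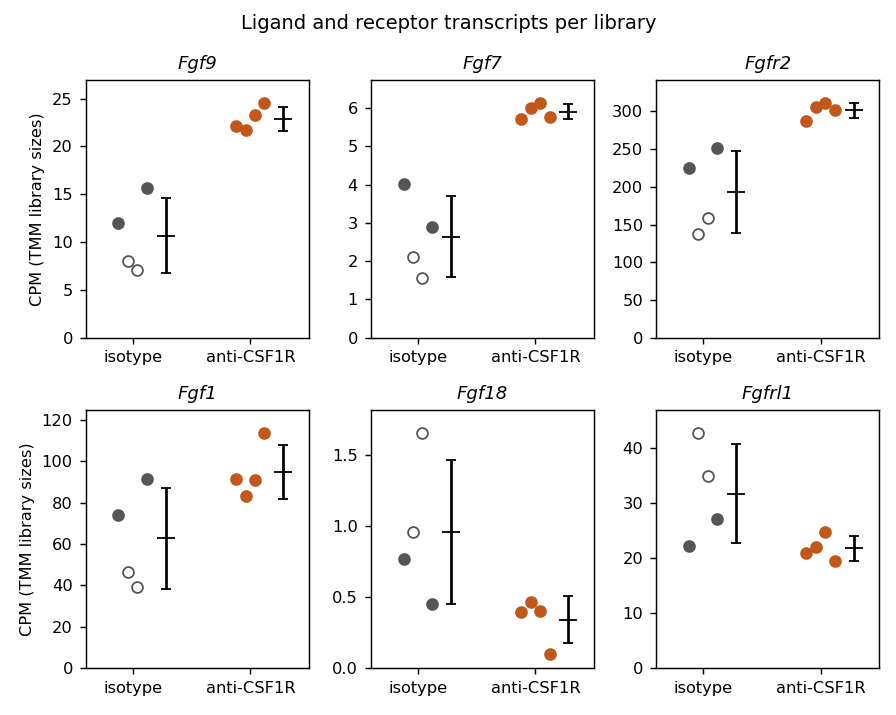
CPM of 4 ligands and 2 receptor genes in each library. Circles are libraries (open for isotype 3 and 4), and the bar beside them is the mean ± SD (n = 4). In Fgf9, Fgf7 and Fgfr2 every anti-CSF1R library lies above every isotype library, while Fgf1, Fgf18 and Fgfrl1 overlap.

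Among the receptors, Fgfr1 was the most abundant FGF gene of all per kilobase of exon, at 79.0 CPM per kb with isotype and 75.9 with anti-CSF1R. Its levels were 702, 895, 827 and 697 CPM in isotype 2 to 5, against 746, 706, 794 and 752 CPM in anti-CSF1R 7 to 10. Isotype 3 and 4 were the highest, and the treated libraries lay between them and the other isotype pair. The log2 fold change was -0.058 with a 95% interval of -0.39 to 0.28 (edgeR adjusted p = 0.789). It turned to 0.097 with isotype 2 and 5 only (-0.071 to 0.26), to 0.066 with the offset and to 0.11 when scaled by library size alone. Fgfr3, a receptor that restrains growth plate cartilage and is also expressed by osteoblasts, stood at 132, 197, 171 and 175 CPM under isotype and 158 to 167 CPM under anti-CSF1R. The treated values sat within the isotype range (log2 fold change -0.060, 95% interval -0.40 to 0.28, edgeR adjusted p = 0.786), and the sign turned under the same 3 settings.

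Fgfr2, the receptor most often mutated in syndromic craniosynostosis, was higher in every treated library. It stood at 225, 137, 158 and 251 CPM in isotype 2 to 5. It stood at 287, 306, 311 and 302 CPM in anti-CSF1R 7 to 10. The lowest treated library lay above the highest isotype library, isotype 5, and isotype 3 and 4 were the lowest of all. The means were 193 ± 54.0 and 301 ± 10.2 CPM (SD, n = 4 each), 1.56-fold higher. On all libraries the log2 fold change of 0.64 ± 0.21 (SE) missed the threshold (edgeR adjusted p = 0.241). Fgfr2 rose with isotype 2 and 5 as controls, to 1.27 times their mean (0.34, edgeR adjusted p = 0.0368). Under the offset it missed the threshold (0.64, edgeR adjusted p = 0.0845). Gene counts do not separate its epithelial and mesenchymal splice forms, and 3.04% of its annotated exon bases are shared with Ctbp2.

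Seen as a share of the 4 signalling receptors per kilobase of exon, Fgfr2 made up 19.5%, 10.1%, 12.4% and 20.3% in isotype 2 to 5 and 22%, 24.0%, 22.4% and 22.9% in anti-CSF1R 7 to 10. The difference of 7.26 percentage points had the smallest p that 70 assignments allow (exact two-sided permutation p = 0.0286, adjusted over the 4 shares p = 0.114). Fgfr1 held 64.9% ± 4.56 and 59.3% ± 0.972, Fgfr3 19.3% ± 1.97 and 17.7% ± 0.392, and Fgfr4 0.280% ± 0.144 and 0.158% ± 0.0261 (SD, n = 4 each; exact permutation adjusted p = 0.152, 0.171 and 0.152). None of the 4 shares passed after adjustment. Isotype 3 and 4 held the lowest Fgfr2 shares and so widened the difference. In isotype 2 and 5 alone the Fgfr2 shares (19.5% and 20.3%) were nearer those of the 4 treated libraries (22% to 24.0%), though still below them.

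Fgfr4, a receptor of muscle precursors and liver, was scarce, at 0.798, 0.802, 1.12 and 2.08 CPM under isotype and 0.561 to 0.836 CPM under anti-CSF1R. Isotype 5 was the highest, and the groups overlapped (log2 fold change -0.74, edgeR adjusted p = 0.278). Muscle markers (12 genes summed) stood at 37.1, 88.2, 16.1 and 11.99 CPM in isotype 2 to 5, against 12.7 to 13.9 CPM under anti-CSF1R. The sum of 5 cartilage markers was 366, 528, 842 and 2790 CPM in isotype 2, 3, 4 and 5, which ranks these libraries as Fgfr4 does, and was 63.9 to 362 CPM under anti-CSF1R. The part of either tissue in the Fgfr4 values was not tested. Fgfrl1, a receptor that binds FGFs but lacks the kinase domain, had its high values in isotype 3 and 4. It stood at 22.2, 42.6, 34.8 and 27.0 CPM under isotype and 20.8, 21.9, 24.7 and 19.5 CPM under anti-CSF1R. Isotype 2 lay within the treated range, so the groups overlapped. On all libraries its log2 fold change was -0.54 (edgeR adjusted p = 0.278). Without isotype 3 and 4 this was -0.18, and under the offset -0.17.

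The co-receptors that hormone-like FGFs need were close to absent. Kl (alpha-Klotho) reached at most 10 counts in a library and Klb (beta-Klotho) at most 11. Fgfbp1, a carrier that frees FGFs from the matrix, had a count of 0 in all 8. Its relative Fgfbp3 was detected, at 1.87 to 2.86 CPM under isotype and 2.51 to 3.38 CPM under anti-CSF1R, a log2 fold change of 0.24 that missed the threshold (edgeR adjusted p = 0.396).

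**Figure D3:**
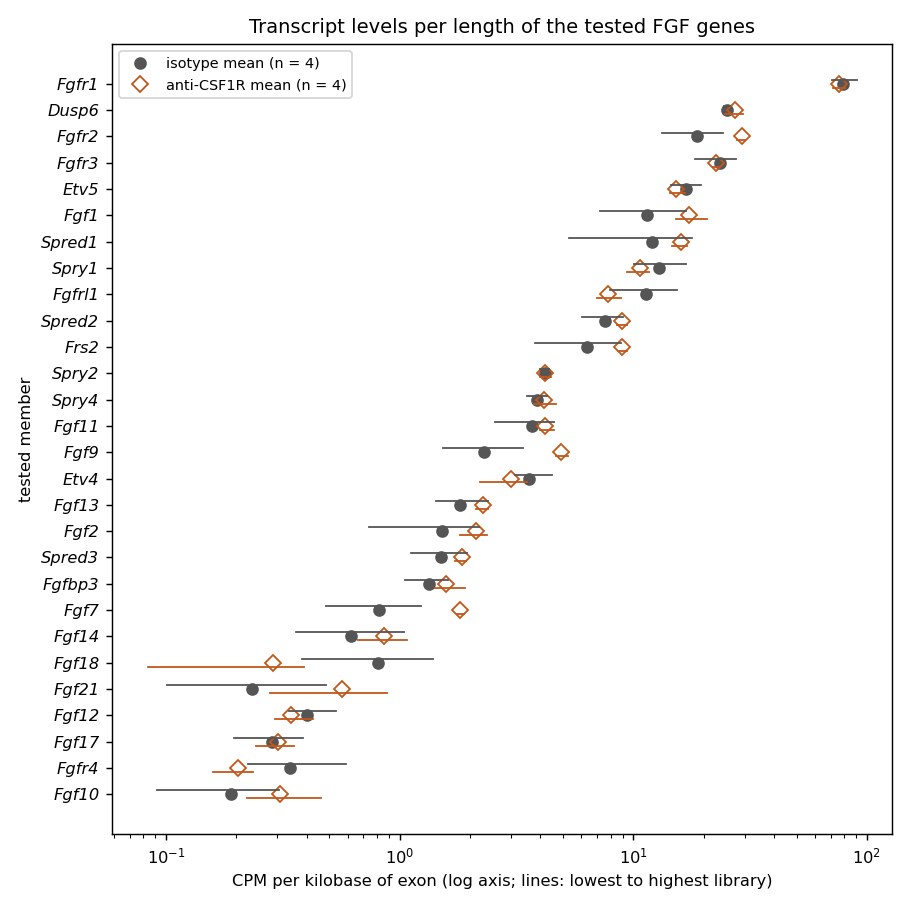
Mean level of each tested FGF gene with exon lengths in GENCODE M21, in CPM per kilobase of exon on a log axis, for isotype (filled circles) and anti-CSF1R (open diamonds), with lines from the lowest to the highest library. Fgfr1 lies highest at 79.0 and 75.9, and Fgf1 is the highest ligand at 11.5 and 17.3.

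None of the 8 feedback genes was called in any of the fits, neither the Sprouty and Spred genes nor Dusp6. Dusp6, the phosphatase that switches ERK off, stood at 78.1, 79.6, 76.8 and 81.1 CPM in isotype 2 to 5. In anti-CSF1R 7 to 10 it stood at 90.6, 81.6, 77.6 and 92.4 CPM. Anti-CSF1R 9 lay within the isotype values, 8 just above them, and 7 and 10 clearly above. The log2 fold change was 0.12 with a 95% interval of -0.16 to 0.40 (edgeR adjusted p = 0.502). Without isotype 3 and 4 it was 0.10 (-0.075 to 0.28). Spry2, a Sprouty inhibitor of the RAS cascade, stood at 8.31 to 9.11 CPM under isotype and 8.31 to 9.31 CPM under anti-CSF1R. Its interval was -0.30 to 0.31 around an estimate of 0.0059 (log2; edgeR adjusted p = 0.978), so a change of 1 log2 unit in either direction lay outside it.

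Spry4 stood at 16.7, 19.4, 20.2 and 17.1 CPM under isotype and 20.3, 18.2, 17.9 and 22.2 CPM under anti-CSF1R (log2 fold change 0.096, 95% interval -0.23 to 0.42, edgeR adjusted p = 0.630). Spry1, the Sprouty gene with the highest level per kilobase of exon (12.9 CPM per kb with isotype), stood at 29.2, 48.9, 40.3 and 31.2 CPM under isotype and 27.3 to 33.9 CPM under anti-CSF1R. Isotype 3 and 4 were again set apart, here above the rest, and the log2 fold change of -0.27 turned to 0.034 without those libraries and to 0.054 under the offset. In GENCODE 24.4% of the Spry1 exon bases overlap an entry on the opposite strand. Spry3 was scarce, at 0.0764 to 0.231 CPM over all 8 libraries.

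The Spred genes, whose products hold back RAF activation, had their lowest values in isotype 3 and 4. Spred1 stood at 121, 50.3, 35.9 and 118 CPM in isotype 2 to 5. In anti-CSF1R 7 to 10 it stood at 109, 98.9, 112 and 115 CPM. The mean of isotype 3 and 4 was 0.361 times that of isotype 2 and 5, the lowest such ratio among the tested members. Its log2 fold change was 0.42 on all libraries (edgeR adjusted p = 0.418), turned to -0.14 without isotype 3 and 4 and was -0.11 under the offset. Spred2 stood at 41.9, 27.9, 29.5 and 40.5 CPM under isotype and 39.2 to 43.3 CPM under anti-CSF1R, and Spred3 at 6.97 to 12.1 and 10.7 to 11.98 CPM. With isotype 2 and 5 only their log2 fold changes were 0.00028 and 0.075 (edgeR adjusted p = 0.999 and 0.822).

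Etv4 and Etv5, ETS factors that serve as readouts of FGF activity in many embryonic tissues, did not differ past the threshold. Etv5 stood at 62.8, 80.3, 73.8 and 59.4 CPM under isotype and 60.9, 59.1, 62.0 and 68.4 CPM under anti-CSF1R. Etv4 stood at 9.70, 13.9, 11.1 and 9.81 CPM under isotype and 10.4, 9.06, 6.84 and 10.9 CPM under anti-CSF1R. Both were highest in isotype 3 and 4. The log2 fold change of Etv5 was -0.14 (95% interval -0.47 to 0.18) and that of Etv4 -0.26 (-0.71 to 0.20), with edgeR adjusted p-values of 0.483 and 0.377, and with isotype 2 and 5 only they were 0.032 and -0.071. Etv4 turned to 0.082 with the offset, and Etv5 to 0.031 when scaled by library size alone. Frs2, the docking protein of the receptors, stood at 77.5, 33.1, 34.8 and 76.3 CPM under isotype and 74.9 to 82.0 CPM under anti-CSF1R. Without isotype 3 and 4 its log2 fold change went from 0.50 to 0.022, with an interval of -0.12 to 0.16.

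**Figure D4:**
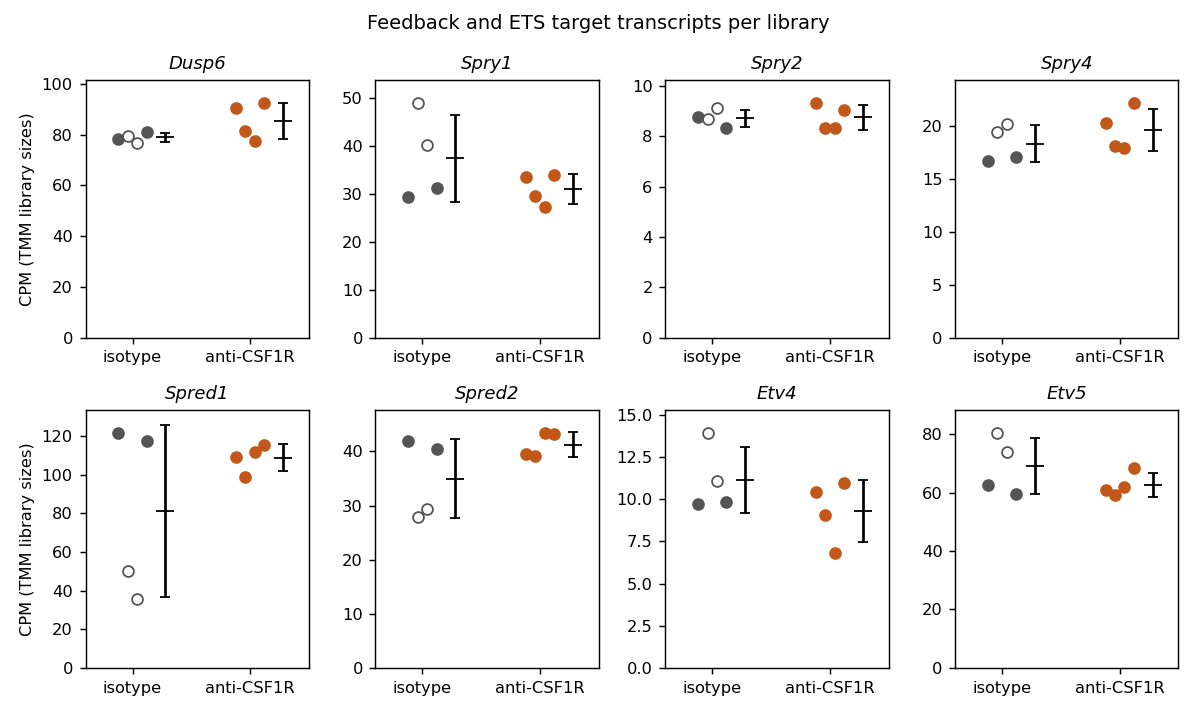
CPM of 6 feedback genes and the ETS factors Etv4 and Etv5 in each library, drawn as in the plot of ligands and receptors (open circles are isotype 3 and 4, bars are mean ± SD, n = 4). Spry2 is level across all 8 libraries. Dusp6 is clearly above the isotype values in anti-CSF1R 7 and 10 and just above them in 8. Spred1 is low in isotype 3 and 4 alone.

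The members' differences among the control libraries went with base composition and with transcript length. Isotype 3 and 4 both lay below the other 6 libraries in 13 of the 29 tested members and above them in 6, against 36.5% and 32.8% of all genes. Members with low GC content, such as Fgf7 (38.0%), Fgf14 (39.3%), Fgf9 (40.9%) and Spred1 (41.2%), were below, and members with high GC content, such as Fgf18, Fgfrl1 (57.8%) and Etv4 (58.7%), above. Across the 28 members with an annotated transcript the Spearman correlation between GC content and the ratio of isotype 3 and 4 to isotype 2 and 5 was 0.721. It was 0.684 across all genes tested, and these points share the same 4 libraries. Between transcript length and the same ratio the members' correlation was -0.562, and GC content and length were not separated here. Fgf9 and Fgf7, both low in GC, are among the members whose values in isotype 3 and 4 widen the difference between the groups. Fgfr4 and Spred3 went against the GC trend. Fgfr2 (50.2% GC) was also low in isotype 3 and 4, and it stayed low under the offset. Its offset values were 144 and 163 CPM in isotype 3 and 4, against 220 and 243 CPM in isotype 2 and 5.

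**Figure D5:**
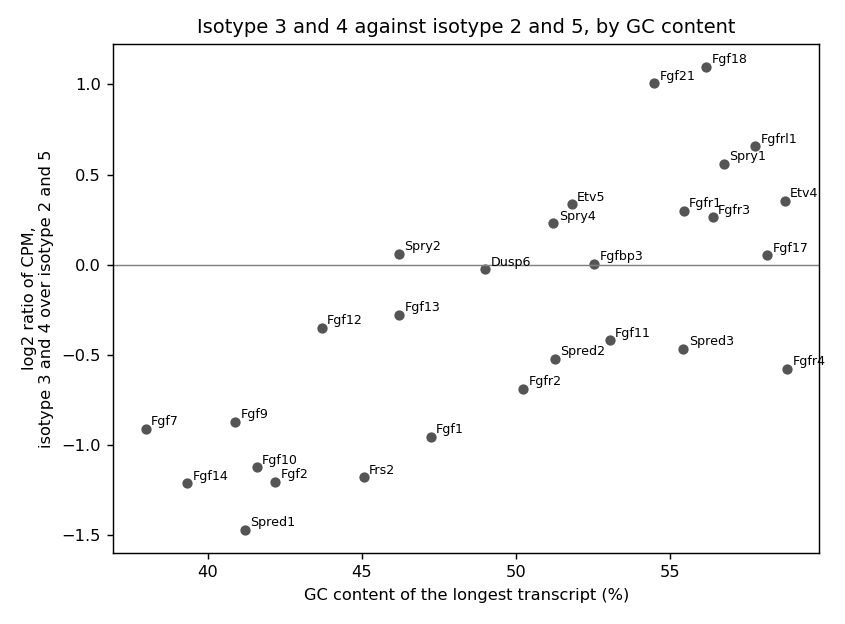
Each point is 1 of 28 tested FGF genes: the GC content of its longest GENCODE transcript (percent, horizontal) against the log2 ratio of mean CPM in isotype 3 and 4 over isotype 2 and 5 (vertical). Points rise from lower left (Fgf7, Fgf14, Spred1) to upper right (Fgf18, Fgfrl1), with Fgfr4 below the trend.

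Other cell type markers were read beside Fgf9, Fgf7 and Fgfr2. The summed level of 5 endothelial markers was 485 to 510 CPM under isotype and 564 to 644 CPM under anti-CSF1R, and that of 5 meningeal markers 37.2 to 59.0 and 61.5 to 65.1 CPM, both apart between the groups in the same direction. Most of the meningeal sum was Foxc1 (29.9 to 52.8 and 56.2 to 60.5 CPM). Ptgds lay lower without overlap (1.02 to 2.54 and 0.346 to 0.907 CPM), and the remaining meningeal markers overlapped. The meningeal median log2 fold change was -0.21, of the other sign than its sum. The sums for 5 pericyte markers (674 to 857 and 830 to 905 CPM), 6 suture mesenchyme markers (369 to 713 and 642 to 715 CPM) and 4 keratinocyte markers (2.81 to 3.32 and 3.00 to 3.55 CPM) overlapped, and the suture mesenchyme median was -0.14. Osteoblast markers (9) summed to 108600 to 163300 and 95290 to 112000 CPM, 3 osteocyte markers to 2652 to 5189 and 3320 to 4343 CPM, and 5 neutrophil markers to 82.9 to 199 and 80.7 to 221 CPM. The 4 adipocyte markers summed to 0.226 to 2.56 and 0.561 to 1.28 CPM, with Cidec and Lep at or below 3 counts in every library. No other member of these lists was so low, and none of their members passed the edgeR threshold. The part of these cells in the higher values of Fgf9, Fgf7 and Fgfr2 was not tested.

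Genes downstream and beside the receptors were read from 5 lists, and 0 of their members passed on all 8 libraries. Genes named as lying higher or lower without overlap were picked out after their values were seen. Of 12 receptor adaptors, 2 lay higher (Sos2 and Gab1) and 1 lower (Grb2) without overlap (6.61% and 8.34% of all genes). Their median log2 fold change of 0.27 went to 0.0033 without isotype 3 and 4 and to -0.0099 under the offset. The members of highest mean CPM, the adaptor Shc1 and the phospholipase Plcg1, stood at 200 ± 58.0 and 176 ± 14.9 CPM under isotype and 174 ± 3.31 and 173 ± 6.76 CPM under anti-CSF1R (SD, n = 4 each). Of 13 genes of the RAS and ERK cascade 2 lay higher (Araf and Ksr1) and 0 lower without overlap, beside the same 6.61% and 8.34%. The median was 0.29, or 0.0077 without isotype 3 and 4 and -0.076 under the offset.

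Of 15 genes known to respond to ERK, 1 lay higher (Il17rd) and 1 lower (Dusp4) without overlap, near the background of 6.61% and 8.34%. They had a median log2 fold change of 0.075, of 0.15 without isotype 3 and 4 and of 0.30 under the offset. Flrt2, a membrane protein that can bind FGF receptors, had the highest mean CPM of the list, at 86.4 ± 55.5 and 155 ± 16.0 CPM, and Egr1, an immediate early gene, stood at 96.8 ± 8.19 and 111 ± 35.1 CPM (SD, n = 4 each; edgeR adjusted p = 0.289 and 0.546). The log2 fold change of Flrt2 went from 0.84 to 0.21 without isotype 3 and 4. Dusp4, a nuclear phosphatase of ERK named here after its values were seen, lay lower in every treated library. It stood at 8.79, 13.5, 15.3 and 8.51 CPM in isotype 2 to 5, against 5.58, 5.04, 3.91 and 3.19 CPM in anti-CSF1R 7 to 10. Its log2 fold change of -1.38 ± 0.27 (SE) missed the threshold on all libraries (edgeR adjusted p = 0.0575). It fell with isotype 2 and 5 as controls (-0.96, edgeR adjusted p = 0.0351) and also under the offset (-1.06, edgeR adjusted p = 0.0142). Dusp4 is also expressed outside the FGF response, and macrophage and osteoclast markers fell in the same libraries. Their part in the fall was not tested. Ccnd1, the gene of cyclin D1, was the other gene of the list past the threshold with isotype 2 and 5 only (0.33, edgeR adjusted p = 0.0182, named after its values were seen), and its log2 fold change was 0.020 on all libraries.

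Of 23 genes for heparan sulphate and its carriers, 3 lay higher (Gpc4, Gpc6 and Hs6st2) and 2 lower (Gpc3 and Ext1) without overlap (6.61% and 8.34% of all genes). The median was -0.16 on all libraries, 0.032 without isotype 3 and 4 and -0.15 under the offset. Hspg2, the basement membrane proteoglycan perlecan, stood at 940 ± 147 and 883 ± 49.9 CPM, and Sdc3, a syndecan, at 673 ± 182 and 544 ± 35.7 CPM (SD, n = 4 each; edgeR adjusted p = 0.696 and 0.328). Past the threshold with isotype 2 and 5 only, and named after their values were seen, were Gpc6, a glypican (higher, 0.33, edgeR adjusted p = 0.0155), and Ext1, which extends the sugar chain (lower, -0.35, edgeR adjusted p = 0.00786). On all libraries their log2 fold changes were 0.65 and -0.53 (edgeR adjusted p = 0.244 and 0.151). Under the offset Gpc6 passed as well (0.39, edgeR adjusted p = 0.0410), whereas Ext1 did not (-1.33, edgeR adjusted p = 0.0915). Of 10 suture genes tied to FGF signalling, 1 (Runx2) lay higher and 3 lower (Twist1, Msx2 and Il11ra1) without overlap (6.61% and 8.34% of all genes). The median was -0.090, or -0.0093 without isotype 3 and 4 and 0.038 under the offset. Runx2, the master factor of osteoblasts, stood at 241 ± 86.9 and 362 ± 26.9 CPM and Efnb1, an ephrin of coronal suture boundaries, at 164 ± 53.6 and 143 ± 8.30 CPM (SD, n = 4 each; edgeR adjusted p = 0.278 and 0.518). Without isotype 3 and 4 the log2 fold change of Runx2 went from 0.59 to 0.19 (edgeR adjusted p = 0.297). In that list 1 gene, Ihh, a hedgehog ligand named after its values were seen, passed with the offset (0.66, edgeR adjusted p = 0.0367) and not with isotype 2 and 5 only (0.54, edgeR adjusted p = 0.110).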

How the data were processed

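Messenger RNA from parietal bone was sequenced in 8 libraries (TruSeq Stranded mRNA, per the labels' protocols). Raw counts per gene symbol were deposited by the authors in 1 table. The submitters' processing notes name STAR 2.7.10b, featureCounts 1.6.3 and the builds GRCm38 and GRCm39, without a role for each. How strand and multiply mapped reads were handled is not given in the sources used here.

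Counts were tested with edgeR 4.0.16 in R 4.3.3: its default low-count filter, TMM scaling and a robust quasi-likelihood fit, with p-values adjusted by Benjamini and Hochberg's method over 17028 genes. The fit was checked on simulated counts. These held no GC or length shift and no split among the isotype libraries, so the check does not cover those features. CPM use TMM library sizes. The limit for a count of 0 was 3 read pairs, and markers at or below 3 counts in every library were listed as such. Intervals of 95% come from the fit's standard errors. Exon and transcript lengths and GC content are from GENCODE M21, matched by symbol for 40 of the 41 members, and promoters from the RefSeq table for 31. Genes without a GENCODE match, Spry3 among them, got no GC or length term in the offset.

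Alternatives were DESeq2 1.42.0, limma-voom 3.58.1, RLE scaling, scaling by library size alone, no filter, 1 CPM in 4 libraries, isotype 2 and 5 only, a spline offset (5 degrees of freedom each for GC content and log2 length), a muscle score (8 tested genes) as covariate, and leaving out each library. Members, lists and alternatives were chosen with earlier results of these data known. All members are accounted for. For each pathway list up to 3 members past the threshold, by smallest p, or else the 2 of highest CPM, were named. For the RAS and ERK list those members are not reported here.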

Additional observations from a re-analysis of the deposited data

How the results depend on the processing

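The number of genes called was 144. It was 777 with DESeq2, 536 with isotype 2 and 5 only, 452 with the GC and length offset and 0 with the muscle covariate, and it ran from 0 to 260 without each library in turn. It was 0 without anti-CSF1R 7 or 8 (1903 and 1597 genes at an unadjusted p under 0.05), 4 without 9, 14 without 10, 35 without isotype 4, 106 without isotype 3, 260 without isotype 2 and 234 without isotype 5. The number of FGF genes called higher went from 0 to 2 with DESeq2, 3 without isotype 3 and 4 and 1 with the offset. It ran from 0 to 1 without each library (Fgf7 without isotype 2, Fgf9 without isotype 5). In those fits 15 of 17229 and 41 of 17210 genes were called higher. No FGF gene was called lower in any of the 17 alternatives. Over all genes the number called lower ran from 0 (muscle covariate, among others) to 629 (DESeq2).

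Of 488 fold changes of tested members under these alternatives, 31 turned sign, none of them called. With isotype 2 and 5 only these were Fgf2 (-0.0065), Fgf11 (-0.012), Fgf14 (-0.0057), Fgfr1 (0.097), Fgfr3 (0.075), Spry1 (0.034), Spred1 (-0.14) and Etv5 (0.032). With the offset they were Fgf2 (-0.060), Fgf14 (-0.014), Fgfr1 (0.066), Fgfr3 (0.15), Spry1 (0.054), Spry2 (-0.16), Spred1 (-0.11) and Etv4 (0.082). With library size alone, which moved the median of all genes from 0.031 to 0.19, they were Fgfr1 (0.11), Fgfr3 (0.11) and Etv5 (0.031). With the muscle covariate they were Fgf11 (-0.050) and Fgfr1 (0.012), and Spry2 was -0.027 with RLE factors and -0.027 with DESeq2. Without each library in turn Fgf17 ran from -0.078 to 0.25, Fgfr1 from -0.14 to 0.014, Fgfr3 from -0.19 to 0.023 and Spry2 from -0.025 to 0.030. The filter of 1 CPM in 4 libraries left 24 members tested. The cause of these shifts was not tested.

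Adjusted p-values over the 17 alternatives ran from 0.00137 to 0.530 for Fgf9, 0.00263 to 0.432 for Fgf7 and 0.0368 to 0.816 for Fgfr2. No paired analysis was possible because the replicate numbers are not shared between the groups. Low counts limit Fgf18, Fgf21, Fgf17, Fgf10, Fgfr4 and Spry3.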
